A study of Mus musculus with 22 samples.

Results

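The 36 genes described here copy DNA in S phase or open the way into it. They were taken by symbol from a list of origin licensing, replication fork, nucleotide supply and E2F-driven genes. It was chosen with earlier results of these data known, so shares of members set beside all genes are description and not an independent test. All 36 had a probe, among 22911 named genes on the array, and all 36 were among the 17404 genes tested. The list has 10 licensing genes, 4 genes of helicase activation, 8 of polymerases and the sliding clamp, 2 of Okazaki fragment joining, 5 of nucleotide supply, 5 regulators of the G1/S step and 2 of chromatin and repair.

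DNA is copied once in each cell cycle. In G1, the origin recognition complex, Cdc6 and Cdt1 load the ring-shaped MCM helicase onto origins, and in S phase Cdc45 and the GINS complex turn it into a working fork. E2F transcription factors, freed from retinoblastoma proteins by cyclin-dependent kinases such as those bound by cyclin E, switch on many of these genes. The resting urothelium of the bladder rarely divides, while carcinoma of the bladder does.

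The study measured RNA of 22 mouse bladder samples on 1-colour Agilent arrays, 1 array a sample, in 8 groups. BBN, N-butyl-N-(4-hydroxybutyl)nitrosamine, is a carcinogen that gives mice bladder cancer. It was given in the drinking water for 24 weeks to the mice of 19 arrays, and their bladders were taken at an age of 8 months. The design asks how a mutant Trp53 allele, switched on in basal or in luminal urothelial cells, bears on such tumours.

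The normal group held 3 wild-type mice of the same age without BBN or tamoxifen. Krt5-Cre (2 arrays) carried Krt5-CreERT2, a tamoxifen-inducible Cre of basal cells, and LSL-RFP, a reporter that Cre turns on. Upk2-Cre (2 arrays) carried Upk2-CreERT2, its counterpart for luminal cells, and the same reporter. Trp53 het (3 arrays) is titled as a Trp53 heterozygote and labelled Trp53R270H/+, without Cre or tamoxifen. Krt5-Cre R270H (3 arrays) and Krt5-Cre R172H (4 arrays) added a conditional Trp53R270H or Trp53R172H allele to the Krt5-Cre mice, and Upk2-Cre R270H (2 arrays) and Upk2-Cre R172H (3 arrays) did so for Upk2-Cre. The 4 Cre groups with a mutant allele and the 2 without were all given tamoxifen, and all 7 non-normal groups were given BBN. Cre works only in cells where its promoter is active, whereas the protocol describes RNA of whole bladders. The 3 normal samples are labelled as urothelium, and are called normal bladder below. If they were taken differently, that and BBN cannot be told apart in any comparison with normal. In bulk tissue, more cells of a type and more RNA per cell cannot be told apart.

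Each level below is the log2 of the processed spot signal over the 75th percentile of its array, for the brightest probe of the gene. Levels of different genes are not compared, since probes differ in brightness. A gene is called where the adjusted p of limma, over all genes tested, was at or under 0.05. The 3 normal arrays lay on a slide of their own, so slide and normal group cannot be told apart for any comparison with normal. Of 22 arrays, 11 went against their labelled sex by Xist and Y-linked genes, among them all 3 normal arrays and 8 of the 19 BBN arrays. All 36 members kept a measured value on each array, and 33 were well above background on all 22. The labels do not say how the samples were processed in parallel, and 2 pairs of arrays share an animal code, so p-values measure the spread between these samples, which may in part be technical.

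Promoter sequences are shown first, because the members are known as targets of E2F, whose binding letters can be read in them. RefSeq windows (GRCm38.p6, 250 bases before to 50 after a gene's start) were at hand for 31 of the 36 members. The windows were searched on both strands for the E2F-type letters TTTCCCGC, TTTGGCGC, TTTCGCGC and TTTGCCGC, where a match on one strand may overlap a match on the other. At least 1 match stood in the windows of 13 of 31 members (41.9%), against 3.94% of tested genes and 2.60% of all genes with a window. In 8 members a match lay wholly before the start. Of these, Uhrf1 has a further start upstream and is named only. The 7 printed here cover licensing, polymerase and clamp loader genes, including Cdc6 and Rfc3, which were not called. They run 5′ to 3′ along the gene, with up to 20 bases kept on each side, none past the gene's start, and E2F-type letters in capitals.
Orc1: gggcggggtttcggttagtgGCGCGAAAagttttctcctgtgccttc
Cdc6: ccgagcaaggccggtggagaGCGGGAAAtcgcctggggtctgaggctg
Mcm5: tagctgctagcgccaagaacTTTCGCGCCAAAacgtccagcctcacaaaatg
Mcm6: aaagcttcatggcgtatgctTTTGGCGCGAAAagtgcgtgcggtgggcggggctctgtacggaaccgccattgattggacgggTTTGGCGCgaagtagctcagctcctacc
Mcm7: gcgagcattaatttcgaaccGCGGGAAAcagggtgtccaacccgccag
Pola1: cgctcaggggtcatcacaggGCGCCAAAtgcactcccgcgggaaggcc
Rfc3: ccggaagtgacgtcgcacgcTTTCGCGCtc

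The stretches lie at Orc1 on chr4:108579407-108579453 (+ strand), Cdc6 on chr11:98907993-98908040 (+ strand), Mcm5 on chr8:75109336-75109387 (+ strand), Mcm6 on chr1:128359725-128359835 (- strand), Mcm7 on chr5:138172021-138172068 (- strand), Pola1 on chrX:93632266-93632313 (- strand) and Rfc3 on chr5:151651209-151651238 (- strand). Mcm5 and Mcm6 each hold a pair of overlapping matches, one on each strand, and Mcm6 holds a further match nearer to its start. Rfc3 and Mcm7 each hold a further match after the start, from base 1 and base 17, which is not printed. Matches are letters only, not sites known to be bound. The 13 members with a match had changes from 0.45 to 3.97 (median 1.57) in BBN against normal, and the 18 members whose window held none had changes from 0.71 to 4.71 (median 1.99).

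The CCAAT box, CCAAT on either strand, which the factor NF-Y binds, stood in the windows of 19 of 31 members (61.3%). The share was 42.2% of tested genes and 41.1% of all genes with a window. The letters TTTGAA and TTCGAA of the CHR element, known from late cell cycle genes, stood in 7 of 31 (22.6%). The share was 17.5% of tested genes and 21.7% of all genes with a window. Counted by window, it was 18.9% of member windows and 19.2% of all windows. The CCAAT letters of 3 members with large changes and no E2F-type match are shown in capitals.
Mcm10: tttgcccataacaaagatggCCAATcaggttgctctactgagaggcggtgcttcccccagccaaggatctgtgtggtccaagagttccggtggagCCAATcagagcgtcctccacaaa
E2f8: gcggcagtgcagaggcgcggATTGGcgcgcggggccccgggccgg
Rrm2: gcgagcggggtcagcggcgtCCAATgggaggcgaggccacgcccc

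These stretches lie at Mcm10 on chr2:5012792-5012909 (- strand), E2f8 on chr7:48881684-48881728 (- strand) and Rrm2 on chr12:24708184-24708228 (+ strand).

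Licensing genes were higher in the BBN bladders. Of 10, 8 rose and none fell, with changes from 0.73 to 3.97 on the log2 scale and a median of 1.59. Over all genes tested, 23.7% were called higher in BBN, and over the 36 members 32 (88.9%) were. The same 23.7% stands beside the counts of each role below, and 13.6% of all genes had every BBN array above every normal one. The 32 include Ccne2, whose signal was near background. The median change was 1.70 for the members and 0.13 for all genes tested. With quantile normalization the median of all genes was -0.01 and that of the members 1.59.

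Orc1, the largest subunit of the origin recognition complex, was among the genes that rose. Its normal levels were -3.95, -7.34 and -5.67, and its BBN levels ran from -3.97 through a median of -1.52 to 0.24 (n = 19). The change was 3.97 ± 0.65 (SE, limma adjusted p = 0.00019). It was called in all 34 settings run that gave a value, at sizes from 2.05 (normexp background correction) to 4.82, and a second probe was not well above background on any normal array. Orc1 was well above background on 1 of 3 normal and 17 of 19 BBN arrays, and 18 of 19 BBN arrays were above every normal one. The array at -3.97 was Krt5-Cre R270H replicate 2, just below the highest normal array.

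The MCM2-7 ring is the motor of the fork, and all 6 subunits rose. Mcm5 stood at -0.23, -1.21 and -1.51 in normal bladder and from 1.0016 through 1.81 to 3.03 in BBN, a change of 2.97 ± 0.34 (SE, limma adjusted p = 6.31e-06). Mcm3 stood at 1.11, 0.31 and 0.14 in normal and from 1.85 through 3.09 to 4.39 in BBN, a change of 2.60 ± 0.34 (SE, limma adjusted p = 2.28e-05). No BBN array overlapped the normal ones for either gene. Mcm7 changed by 1.67, Mcm2 by 1.61, Mcm6 by 1.57 and Mcm4 by 1.34. Other probes of these genes gave other sizes, 0.89 for Mcm6, 2.13 for Mcm7, and 2.39 and 2.16 for Mcm3. Mcm2 overlapped the normal range on 1 BBN array, Krt5-Cre R172H replicate 2.

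Cdt1, which brings MCM to the origin with Cdc6, stood at 1.44, 0.84 and 0.55 in normal bladder and from 0.64 through 2.25 to 3.35 in BBN. Its change was 1.36 ± 0.42 (SE, limma adjusted p = 0.0157), with 18 of 19 BBN arrays above all normal ones. The other loading factors did not pass the test. Cdc6 stood at -1.27, -1.59 and -1.66 in normal and from -1.87 through -0.77 to 0.42 in BBN, a difference of 0.73 (95% interval 0.03 to 1.42, limma adjusted p = 0.0859). Orc6, the smallest origin recognition subunit, stood at 1.17, 1.20 and 1.01 in normal and from 0.58 through 2.26 to 3.997 in BBN, a difference of 1.03 (0.09 to 1.96, limma adjusted p = 0.0709). Both ranges take in normal values, for Cdc6 on 4 BBN arrays and for Orc6 on 1. Without Krt5-Cre R270H replicate 2, Cdc6 and Orc6 were both called, and Orc6 also without Krt5-Cre R270H replicate 1. Over all 36 settings run, Cdc6 was called in 1 and Orc6 in 5.

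**Figure D1:**
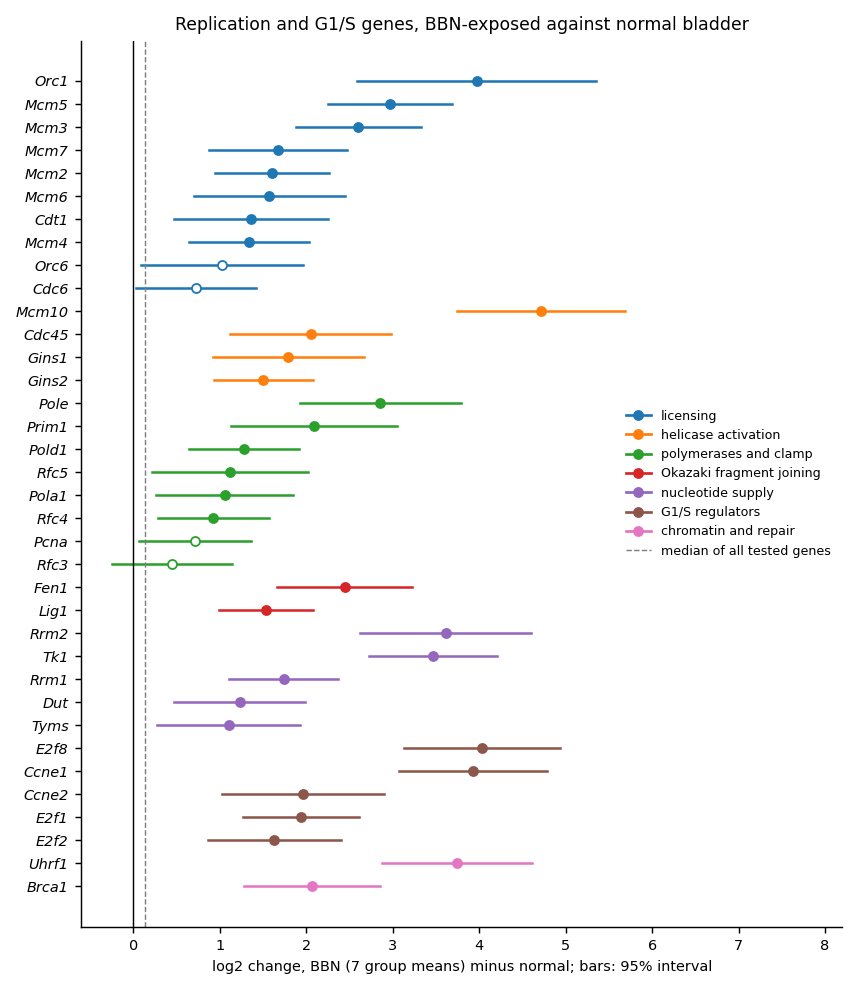
The change of each member between BBN and normal bladder is plotted on a log2 scale, with its 95% interval, members grouped by role and open circles for the 4 not called (Orc6, Cdc6, Pcna and Rfc3); Ccne2 rests on signal near background. All 36 points lie above 0, from Rfc3 at 0.45 to Mcm10 at 4.71, and the dashed line marks the median of all genes tested, 0.13.

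All 4 genes of helicase activation rose. Mcm10, which helps the loaded helicase start to unwind, had the largest change of the 36. It stood at -3.38, -4.37 and -3.36 in normal bladder and from -0.33 through 0.96 to 2.77 in BBN, a change of 4.71 ± 0.46 (SE, limma adjusted p = 1.41e-06), or 26.2-fold. The lowest BBN array was far above the highest normal one.

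Cdc45, the partner of MCM in the moving helicase, stood at -5.05, -5.12 and -5.20 in normal and from -4.90 through -2.97 to -1.68 in BBN, a change of 2.05 ± 0.44 (SE, limma adjusted p = 0.0015). It was a dim probe, well above background on 2 of 3 normal and 15 of 19 BBN arrays, and with quantile normalization it was not called (1.53, limma adjusted p = 0.0716, the highest over its alternatives). Gins1 and Gins2, subunits of the GINS complex, changed by 1.79 and 1.504, with every BBN array above every normal one for both.

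Among the polymerases and the clamp, 6 of 8 rose. Pole, the catalytic subunit of the leading strand polymerase, stood at -1.57, -1.72 and -2.21 in normal bladder and from -0.06 through 0.90 to 2.65 in BBN. Its change was 2.86 ± 0.44 (SE, limma adjusted p = 0.000104), with no overlap. Prim1, the primase that lays down the RNA primers, stood at -0.21, -0.53 and -0.90 in normal and from -0.27 through 1.43 to 2.64 in BBN, a change of 2.09 ± 0.45 (SE, limma adjusted p = 0.00171), with 18 of 19 BBN arrays above the normal range. Pold1, of the lagging strand polymerase, stood at 0.71, 0.50 and 0.10 in normal and from 0.52 through 1.67 to 2.71 in BBN, a change of 1.28 ± 0.30 (SE, limma adjusted p = 0.00286). Its lowest BBN array, Upk2-Cre R270H replicate 2, lay within the normal range, and 18 of 19 BBN arrays were above it.

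The clamp and 1 subunit of its loader did not pass the test. Pcna, the sliding clamp and a common marker of S phase cells, stood at 3.03, 2.94 and 2.67 in normal and from 2.89 through 3.64 to 4.997 in BBN. The difference of 0.71 (95% interval 0.06 to 1.36) was not called (limma adjusted p = 0.0717), although 17 of 19 BBN arrays were above all normal ones, and it was called without either Krt5-Cre R270H replicate 1 or replicate 2. Rfc3, a subunit of the clamp loader, stood at 1.47, 1.81 and 1.42 in normal and from 1.32 through 1.92 to 3.35 in BBN, a difference of 0.45 (-0.25 to 1.14, limma adjusted p = 0.282). Only 10 of 19 BBN arrays were above the normal range, and a dimmer probe of Rfc3 differed by -0.44.

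Rfc4 and Rfc5, of the same loader, rose by 0.92 and 1.12, and Pola1, the polymerase that extends primers, by 1.06. A dimmer probe of Rfc4 changed by 2.14. Rfc5 (limma adjusted p = 0.0439) lay close to the threshold and was called in 19 of 36 settings run, Pola1 in 30 and Rfc4 in 32.

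Both Okazaki fragment genes rose without overlap. Fen1, the nuclease that trims primer flaps, stood at 0.66, 0.46 and 0.18 in normal bladder and from 1.23 through 2.86 to 3.54 in BBN, a change of 2.45 ± 0.37 (SE, limma adjusted p = 8.57e-05). Lig1, the ligase that seals the nicks, stood at 1.49, 1.66 and 1.32 in normal and from 2.30 through 3.14 to 3.67 in BBN, a change of 1.53 ± 0.26 (SE, limma adjusted p = 0.000224).

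All 5 genes of nucleotide supply rose. Rrm2, the S phase subunit of ribonucleotide reductase, stood at 0.08, -0.01 and -0.23 in normal bladder and from 2.60 through 3.37 to 5.41 in BBN, a change of 3.61 ± 0.47 (SE, limma adjusted p = 2.06e-05), or 12.2-fold. Tk1, the cytosolic thymidine kinase of dividing cells, stood at -1.11, -1.30 and -1.53 in normal and from 1.35 through 2.03 to 3.16 in BBN, a change of 3.46 ± 0.35 (SE, limma adjusted p = 2.06e-06). Neither gene overlapped, and a second Tk1 probe changed by 3.43.

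Rrm1, the large reductase subunit, which is more stable over the cycle, stood at 0.80, 0.84 and 0.41 in normal and from 1.68 through 2.30 to 3.18 in BBN, a change of 1.74 ± 0.30 (SE, limma adjusted p = 0.000269). Dut, which removes dUTP, changed by 1.23, and Tyms, which makes thymidylate, by 1.102. Their BBN ranges overlapped the normal one, Dut on 1 array and Tyms on 2, and Dut was called in 33 and Tyms in 28 of 36 settings run.

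All 5 regulators of the G1/S step were called higher. Ccne1, cyclin E1, stood at -2.29, -2.55 and -2.66 in normal bladder and from 0.09 through 1.34 to 3.29 in BBN, a change of 3.93 ± 0.41 (SE, limma adjusted p = 2.47e-06), or 15.2-fold. E2f8, a repressor E2F that is itself an E2F target, stood at -3.61, -3.37 and -4.16 in normal and from -1.07 through 0.43 to 1.39 in BBN, a change of 4.03 ± 0.43 (SE, limma adjusted p = 3.03e-06), or 16.3-fold. For both, every BBN array was above the normal range by over 2 log2 units.

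The activator E2Fs rose less. E2f1 stood at -2.05, -1.84 and -2.25 in normal and from -1.36 through -0.05 to 0.80 in BBN, a change of 1.94 ± 0.32 (SE, limma adjusted p = 0.000184). E2f2 stood at -2.12, -2.15 and -2.36 in normal and from -1.77 through -0.45 to 1.22 in BBN, a change of 1.63 ± 0.36 (SE, limma adjusted p = 0.002). Neither overlapped. Ccne2, cyclin E2, had the dimmest probe, not well above background on any normal array and above it on 2 BBN arrays, Upk2-Cre replicate 1 and Upk2-Cre R172H replicate 1. Its call (limma adjusted p = 0.00219) therefore rests on signal near background, no fold is given, and the call was lost with quantile normalization and with normexp background correction. With Ccne2 at its bound, the median change of the members was 1.65.

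Uhrf1 and Brca1 work on newly copied DNA, the first in passing on DNA methylation and the second in repair of damaged forks. Uhrf1 stood at -0.50, -1.39 and -1.74 in normal bladder and from 1.44 through 2.58 to 3.58 in BBN, a change of 3.74 ± 0.41 (SE, limma adjusted p = 4.11e-06), or 13.4-fold. Brca1 stood at -3.09, -3.37 and -3.50 in normal and from -2.15 through -1.38 to 0.45 in BBN, a change of 2.07 ± 0.37 (SE, limma adjusted p = 0.000398). Neither gene overlapped.

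Across the list, 22 of 36 members (61.1%) had all 19 BBN arrays above all 3 normal arrays, against 13.6% of all genes tested. Ccne2 is among the 22 and among the 32 called. It was kept for testing only through the 2 BBN arrays on which it was well above background, so its separation is of signal near background. Without Krt5-Cre R270H replicate 2, 29 members did. Within the scanner that read the normal arrays, 33 of 36 had all 8 BBN arrays above them, and 33 were called, but none of those 8 carried the R270H allele with Cre. Fewer arrays clear the normal range more easily, so the 29 and the 33 are not to be read against 13.6%. Of the 32 members called, 31 had a change of at least 1 log2 unit and 14 of at least 2, Ccne2 counted by its value near background. With slide as a random block, 26 were called, and with scanner as a block, 28. The shares of all genes in these settings are not given.

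**Figure D2:**
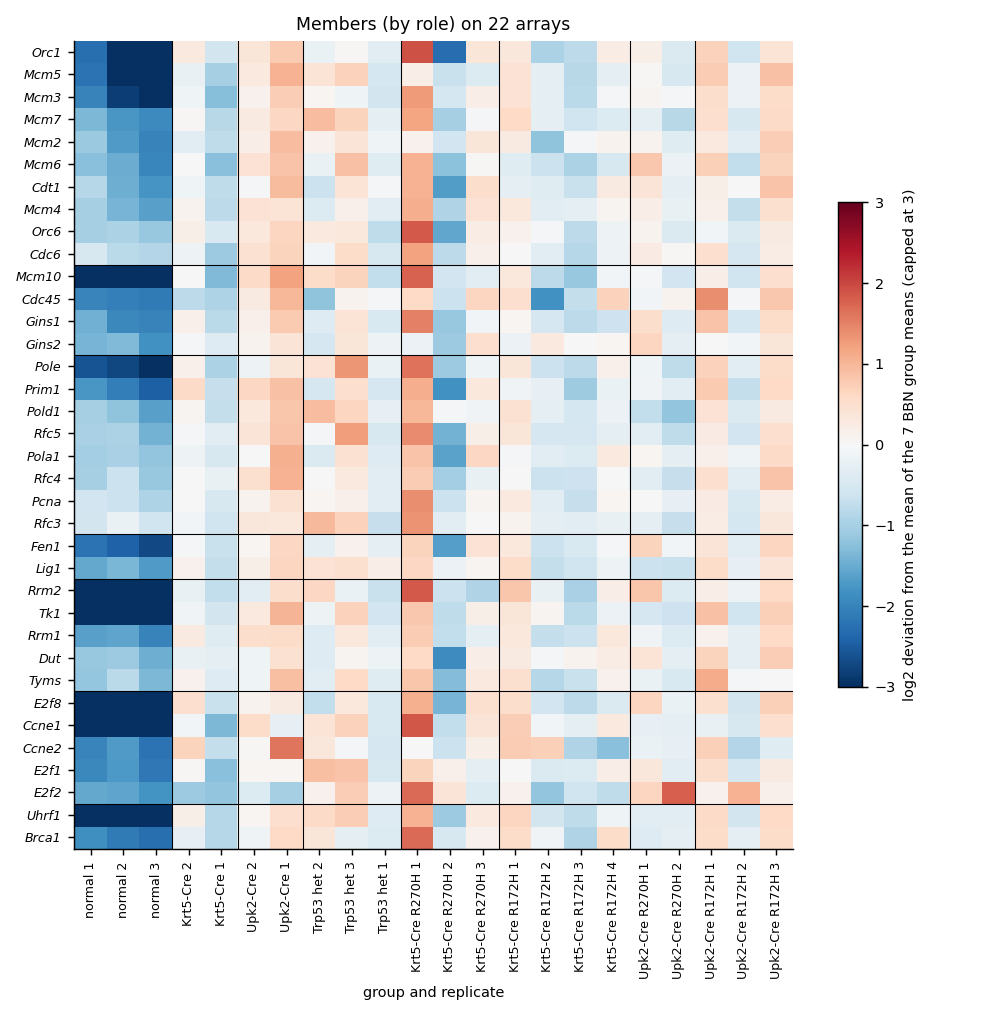
Each cell gives 1 member on 1 of the 22 arrays as the log2 deviation from the mean of the 7 BBN group means, capped at 3, with lines between roles and between groups. The 3 normal columns are below the BBN average for every member, and among the BBN columns Krt5-Cre R270H replicate 1 is the highest and replicate 2 of the same group the lowest.

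Each BBN group was set against the normal arrays. The 7 comparisons share those 3 arrays and are given side by side. In Krt5-Cre, 34 members had every array above every normal one (34.4% of all genes tested), and the median member change was 1.29. In Upk2-Cre all 36 did (38% of all genes), with a median of 2.19. In Trp53 het 35 did (32% of all genes), with a median of 1.80.

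Among the groups with an activated mutant allele, Krt5-Cre R270H had 24 such members (27% of all genes) and a median change of 1.77. The other 12 members failed there on replicate 2 alone, and without it, a setting added after seeing the data, all 36 had both arrays above the normal ones (37.7% of all genes). Krt5-Cre R172H had 30 (27.2% of all genes; median 1.51), Upk2-Cre R270H 33 (35.9%; median 1.75) and Upk2-Cre R172H 34 (30.7%; median 1.88). The groups differ in their number of arrays, and a group of 2 clears the normal range more easily than one of 4. Rfc3 failed in 6 of the 7 groups, all but Upk2-Cre. Orc1, Orc6, Cdt1, Pola1, Prim1, Rfc5 and Dut failed on that 1 array, Krt5-Cre R270H replicate 2, and in no other group.

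**Figure D3:**
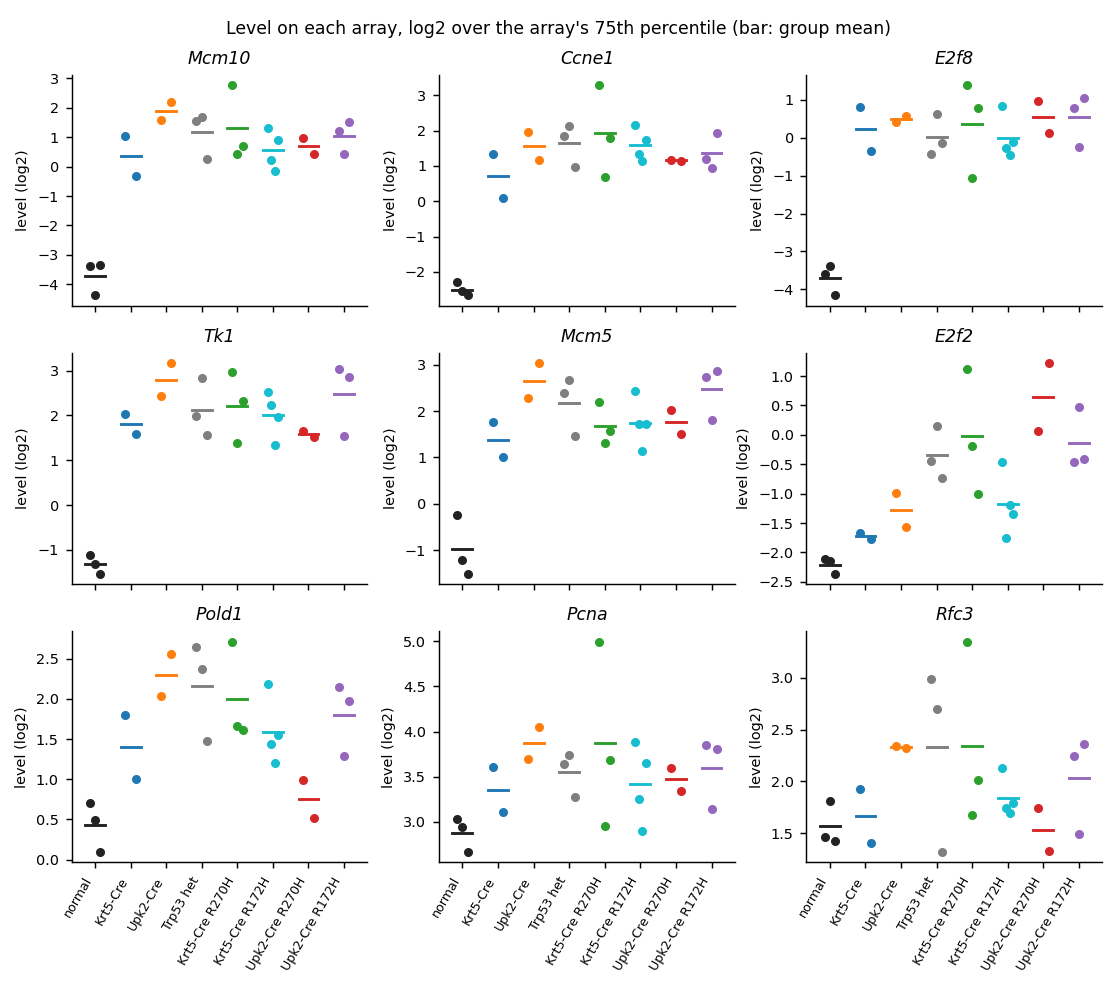
The levels of 9 members are plotted for each array in the 8 groups, in log2 over the 75th percentile of the array, with a bar at each group mean and a separate scale for each gene. Mcm10, Ccne1, E2f8, Tk1 and Mcm5 are low in the 3 normal arrays and high in all others. Pold1, Pcna and Rfc3 overlap, and E2f2 differs most among the BBN groups.

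The Trp53 comparisons asked whether the mutant allele moved these genes once BBN had been given. No member was called in any of them. The 4 groups with an activated mutant allele were set against Krt5-Cre, Upk2-Cre and Trp53 het, the last without Cre or tamoxifen. limma called 0 members and 0% of all genes, with 1 member and 1373 genes at an unadjusted p under 0.05. Member differences ran from -0.42 to 0.94 with a median of -0.08, and the median width of the 95% intervals to each side was 0.62. A difference of 1 log2 unit or more in either direction lay inside the interval for 7 of 36 members. The other comparisons were less precise. There it did for 32 (Krt5 mutant against Krt5-Cre), 34 (Upk2 mutant against Upk2-Cre) and 36 (difference between drivers). It did for 16 between the mutant groups of the drivers, 15 between the alleles and 30 for Trp53 het against the Cre controls.

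E2f2 was the member at the upper end. It stood at -1.68 and -1.77 in Krt5-Cre and at -0.99 and -1.57 in Upk2-Cre. It stood at -0.45, 0.15 and -0.74 in Trp53 het. These levels differ among the groups without an activated allele, Trp53 het being higher on each array than both Cre groups.

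With the mutant allele, E2f2 stood at 1.12, -0.18 and -0.998 in Krt5-Cre R270H and at -0.45, -1.75, -1.19 and -1.34 in Krt5-Cre R172H. It stood at 0.07 and 1.22 in Upk2-Cre R270H and at -0.45, 0.47 and -0.42 in Upk2-Cre R172H. The order of group means ran from Krt5-Cre (-1.72) through Upk2-Cre (-1.28), Krt5-Cre R172H (-1.18), Trp53 het (-0.35), Upk2-Cre R172H (-0.13) and Krt5-Cre R270H (-0.02) to Upk2-Cre R270H (0.64). Neighbours in that order overlapped, except that both Upk2-Cre arrays were above both Krt5-Cre arrays. Krt5-Cre R172H overlapped both Cre control groups.

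The E2f2 difference was 0.94 ± 0.28 (SE, 95% interval 0.35 to 1.54), and did not pass over all genes (limma adjusted p = 0.523, unadjusted p = 0.00399). A second E2f2 probe, dimmer and for the same transcript, differed by 1.16. With scanner as a block the difference was 0.92 (limma adjusted p = 0.177, the lowest over its alternatives, which reached 0.9999). Within a scanner it was 0.66 and 0.78, but over other sets of groups, since the scanner of the normal arrays read no Cre R270H array and the other scanner no Upk2-Cre R172H array. The mean deviation of 8 endothelium markers was 1.16 and 2.33 on Upk2-Cre R270H replicates 1 and 2, 2.08 on Upk2-Cre R172H replicate 2 and 2.07 on Krt5-Cre R270H replicate 2, but -0.20 on Krt5-Cre R270H replicate 1, where E2f2 stood at 1.12. The part of these cells in the E2f2 levels was not tested. Pold1 (-0.42) and Rfc4 (-0.38) came next by p, with limma adjusted p of 0.681 and 0.71.

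Within the Krt5-Cre line, both mutant groups were set against Krt5-Cre. limma called 0 members and 0.0115% of all genes (2 genes), with 1 member and 836 genes at an unadjusted p under 0.05. Of 36 differences 29 were above 0, with a median of 0.30 against 0.01 for all genes. The leading members were E2f2 (1.12, 95% interval 0.13 to 2.11, limma adjusted p = 0.978), Ccne1 (1.04, -0.06 to 2.15) and Mcm3 (0.76, -0.16 to 1.69).

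Within the Upk2-Cre line, most differences lay below 0. limma called 0 members and 0.00575% of all genes (1 gene), with 2 members and 1094 genes at an unadjusted p under 0.05. Only 4 of 36 differences were above 0, those of E2f2, Rrm2, Dut and E2f8, and the median was -0.40 against -0.09 for all genes. E2f2 differed by 1.54 (95% interval 0.50 to 2.57), Pold1 by -1.02 (-1.87 to -0.16), both at a limma adjusted p of 0.777, and Rfc4 by -0.84 (-1.71 to 0.02, limma adjusted p = 0.798). Pold1 stood at 2.03 and 2.56 in Upk2-Cre, 0.99 and 0.52 in Upk2-Cre R270H and 2.14, 1.28 and 1.98 in Upk2-Cre R172H, so that its low levels lay in the R270H pair.

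The difference between the drivers was tested as an interaction. limma called 0 members and 0% of all genes, with 1 member and 578 genes at an unadjusted p under 0.05. It was above 0 in 34 of 36 members, with a median of 0.71 against 0.08 for all genes. Above 0 means a larger mutant minus control difference in the Krt5 line, not higher levels there. The members were read on the same arrays, so their signs are not separate evidence. The intervals of this interaction were wide, 1.47 to each side at the median, since each control group has 2 arrays. Those controls stood apart in the members: the mean deviation from the BBN average was -0.75 and -0.01 on the Krt5-Cre arrays and 0.65 and 0.19 on the Upk2-Cre arrays. Pold1 had the smallest p (1.41, 95% interval 0.23 to 2.59, limma adjusted p = 0.998), followed by Mcm10 (1.62, -0.19 to 3.42) and Lig1 (0.89, -0.12 to 1.91).

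Between the mutant groups of the 2 drivers, limma called 0 members and 0.00575% of all genes (1 gene), with 1 member and 922 genes at an unadjusted p under 0.05. The median member difference, Krt5 minus Upk2, was -0.11, and E2f2 led with -0.86 (95% interval -1.59 to -0.13, limma adjusted p = 0.886). Pold1 differed by 0.52 (-0.09 to 1.12), and by -0.43 between the R172H groups on the scanner of the normal arrays, which read no array of the R270H groups. Mcm6 differed by -0.60 (-1.43 to 0.24).

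Between the alleles, R270H minus R172H, limma called 0 members and 0% of all genes, with 1 member and 1708 genes at an unadjusted p under 0.05. The median member difference was -0.05. E2f2 differed by 0.97 (95% interval 0.24 to 1.70, limma adjusted p = 0.355), and by 0.68 to 1.42 over the alternatives, called in none. All 5 R270H arrays were read on 1 scanner and 5 of the 7 R172H arrays on the other, and in the Upk2-Cre line allele and scanner cannot be told apart.

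Trp53 het against the 2 Cre controls gave 0 members and 0% of all genes by limma, with 1 member and 841 genes at an unadjusted p under 0.05. E2f2 differed by 1.15 (95% interval 0.22 to 2.09, limma adjusted p = 0.852), E2f1 by 0.71 and Pole by 0.67. Trp53 het had no Cre or tamoxifen and the controls had both, so the Trp53 allele cannot be told apart from these here. The moderated F test over all 7 BBN groups called 0 members and 0% of all genes, with 1 member and 1095 genes at an unadjusted p under 0.05. That member was E2f2 (unadjusted p = 0.00505, limma adjusted p = 0.615). These comparisons share arrays, so that the recurrence of E2f2 among them is 1 pattern of group levels and not repeated evidence.

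**Figure D4:**
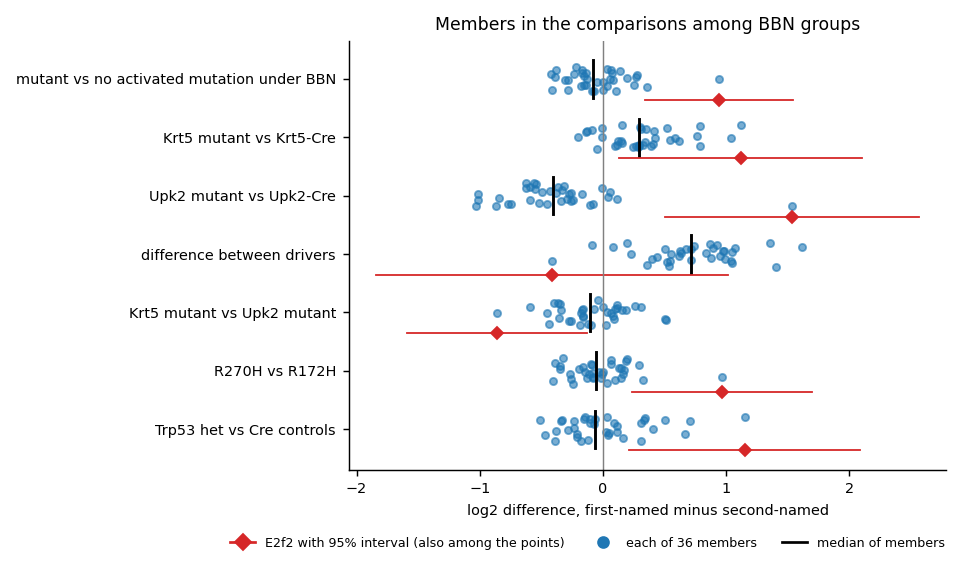
For 7 comparisons among BBN groups, each of the 36 members is plotted at its log2 difference, with a black bar at their median and E2f2 drawn again in red with its 95% interval. The medians lie from -0.40 (Upk2 mutant groups against Upk2-Cre) to 0.71 (difference between drivers), and E2f2 is the highest or the lowest member in all 7.

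The members were high together on some arrays and low together on others, within groups as well as between them. The mean deviation of the 36 members from the BBN average was highest on Krt5-Cre R270H replicate 1 (1.07), where 35 of 36 were above their BBN median. It was lowest on Krt5-Cre R270H replicate 2 (-0.93), with 2 of 36 above. Both ends thus lay in 1 group of 3 arrays.

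Other low arrays were Krt5-Cre replicate 1 (-0.75, with 0 of 36 members above their BBN median) and Krt5-Cre R172H replicate 3 (-0.63, with 1 of 36). Other high arrays were Upk2-Cre replicate 1 (0.65), Upk2-Cre R172H replicate 3 (0.51) and Upk2-Cre R172H replicate 1 (0.47). The normal arrays stood at -1.79, -2.06 and -2.29, below every BBN array.

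Marker lists of other cell types differed among the same arrays. The mean deviation of 8 smooth muscle markers was 2.32 on Krt5-Cre R270H replicate 2 and 2.40 on Krt5-Cre replicate 1, the 2 highest, and that of 7 fibroblast markers 1.82 and 1.90. Luminal urothelium markers stood at 1.30 and 1.20 there. Krt5-Cre R270H replicate 1, the highest in the members, also had a raised smooth muscle value, 1.19. The part of these cell types in the member levels was not tested.

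**Figure D5:**
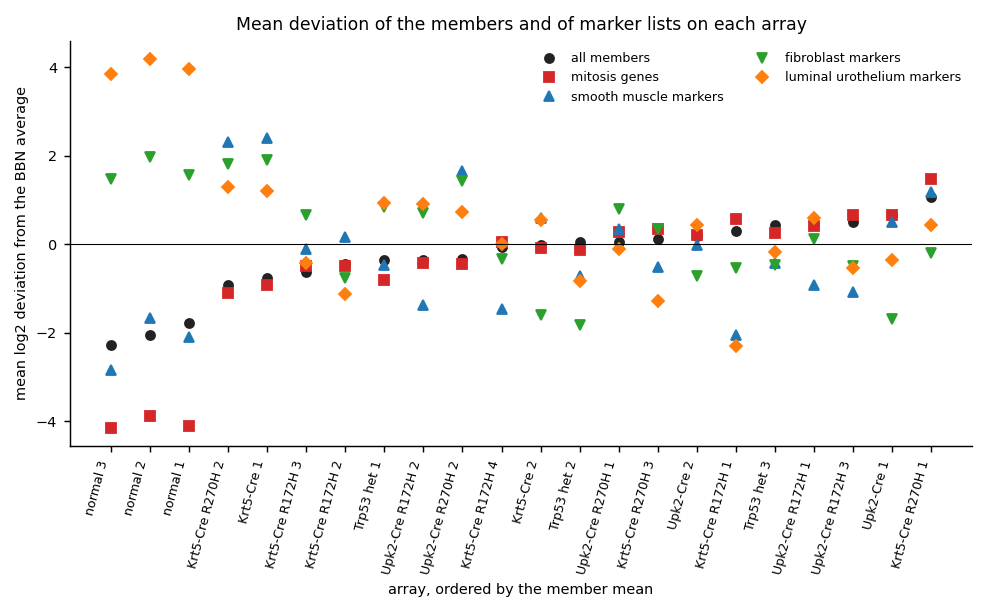
The mean log2 deviation from the BBN average is plotted for the 36 members, the mitosis genes and 3 marker lists on each of the 22 arrays, ordered by the member mean. The mitosis genes follow the members from -4.15 on normal replicate 3 to 1.47 on Krt5-Cre R270H replicate 1, while smooth muscle and fibroblast markers are high on the 2 lowest BBN arrays.

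The rest of the pathway gave a mixed picture in BBN against normal, where 23.7% of all genes tested were called higher and 19% lower. Among 42 other replication genes, 22 rose and 1 fell (median 0.84), and with scanner as a block 14 rose and 0 fell. Ticrr, which helps load Cdc45, changed by 4.54 (limma adjusted p = 3.18e-06), Chtf18 of an alternative clamp loader by 3.22 and the fork scaffold Wdhd1 by 2.87. Clspn, the checkpoint adaptor claspin, was not well above background on any normal array and was at least 6.13-fold higher in BBN. It was kept for testing only through BBN arrays, so its call (limma adjusted p = 1.15e-06) is against normal signal near background. Orc3 fell by 0.98 (limma adjusted p = 0.00597), while Orc2 (-0.07), Orc4 (0.13), Rpa1 (-0.15) and Gins4 (-0.04) did not pass.

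Of 16 other nucleotide supply genes, 7 rose and 1 fell (median 0.67), beside 23.7% higher and 19% lower over all genes tested. Dck, deoxycytidine kinase, rose by 1.65 and Cad, of pyrimidine synthesis, by 1.41. Tk2, the mitochondrial thymidine kinase, fell by 2.01 (limma adjusted p = 3.16e-06), opposite to Tk1. Its normal levels lay between 0.92 and 1.20 and its BBN levels between -1.59 and -0.48.

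Of 19 other G1/S regulators, 6 rose and 1 fell (median 0.42), beside 23.7% higher and 19% lower over all genes tested. The share that rose was thus not far from that of all genes. Ccna2, cyclin A2, rose by 3.98, E2f7, the partner of E2f8, by 3.28, Cks1b, a kinase subunit, by 2.47 and E2f4 by 2.17. E2f5 fell by 0.79 (limma adjusted p = 0.0224). The kinase genes Cdk2 (0.36), Cdk4 (0.56) and Cdk6 (-0.13) did not pass.

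Of 13 inhibitors and pocket proteins, 5 rose and 0 fell (median 0.39), while of all genes tested 23.7% were called higher and 19% lower. Cdkn2a, whose products p16Ink4a and p19Arf restrain CDK4/6 and Mdm2, rose by 7.02 ± 0.39 (SE, limma adjusted p = 7.92e-09). It lay between -2.35 and -1.59 on normal arrays and between 4.10 and 6.41 on BBN arrays. Cdkn2c rose by 1.47, Cdkn1a by 1.43 and Cdkn2d by 0.95, while Rb1 itself differed by -0.10 (limma adjusted p = 0.763).

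Of 10 genes of replication-coupled chromatin, 6 rose and 1 fell (median 1.66), beside 23.7% higher and 19% lower over all genes tested. The histone chaperone Asf1b rose by 3.50, Chaf1b and Chaf1a of the CAF-1 complex by 2.87 and 2.41 and the maintenance methyltransferase Dnmt1 by 1.69. Asf1a, the sister of Asf1b that is less bound to the cycle, fell by 1.45 (limma adjusted p = 0.00414). All 16 mitosis genes rose, with a median of 4.17, or 4.03 with Bub1 and Kif11 at their bounds. The calls of Bub1 and Kif11 are against normal signal near background. Ube2c rose by 5.17, Birc5 by 4.66, Plk1 by 4.60 and Top2a by 4.28.

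Some lists of cell type markers also differed between BBN and normal bladder, where of all genes tested 23.7% were called higher and 19% lower. All 8 smooth muscle markers rose (median 2.36), with summed levels from 8.79 to 18.2 on normal and from 15.2 to 50.8 on BBN arrays. Of 8 basal urothelium markers 6 rose (median 2.01, sums 22.1 to 24.4 against 44.6 to 58.1). Of 10 luminal urothelium markers 8 fell (median -3.57, sums 49.2 to 52.5 against -12.4 to 23.6).

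Of 7 fibroblast markers 4 fell (median -2.10, sums 21.6 to 25.1 against -1.54 to 24.6), and of 8 endothelium markers 1 fell (median -0.49, sums 8.49 to 9.32 against -9.32 to 22.7). Of 10 leukocyte markers 4 rose (median 1.0985, or 0.73 with Cd79a at its bound, sums -16.3 to -13.3 against -3.34 to 16.6). Of 7 nerve markers 1 rose and 1 fell (median -0.43, sums -10.6 to -7.69 against -27.3 to -4.70). Of 8 general epithelium markers 1 rose and 2 fell (median -0.05, sums 31.9 to 33.4 against 25.5 to 33.0). Cd79a was the 1 marker not well above background on any normal array. The normal samples are labelled as urothelium although the protocol describes whole bladders, and smooth muscle markers were lower in them. The part of these shifts in cell type in the member changes was not tested.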

How the data were processed

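Per the file headers, the deposited scanner files hold spot intensity from Agilent Feature Extraction 11.0.1.1, background-subtracted within each array. The submitters' processing notes name version 9.1 and limma. The authors also deposited a table of normalized log2 values, used only as an alternative. From the intensities, log2 of the processed signal minus the 75th percentile of the array was computed, flagged spots were left out and spots of a probe averaged. The probe with the highest mean stood for a gene. Genes well above background on at least 2 of 22 arrays were kept (17404). limma 3.58.1 in R 4.3.3 fitted 8 group means over all genes, with Benjamini-Hochberg adjustment and a threshold of 0.05. BBN against normal weighs the 7 BBN groups alike. The fit was tested on simulated data.

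Arrays give no read depth, and their number limits the precision. The members and gene lists were chosen with earlier results of these data known. Named genes were the members, with full statistics for up to 4 of smallest p in a role and 3 in a comparison with no call, and up to 4 of a pathway list. Genes named beyond these were chosen after their values were seen. Alternatives were other background correction, scaling, filters, probe averaging, the deposited table, and scanner, slide, replicate or sex terms. Others were averaging arrays that share an animal code, and leaving out each array. The 2 pairs of arrays that share an animal code correlated at 0.92 and 0.95, other pairs of a group at 0.90 to 0.99. This cannot show whether they are separate animals, and they were kept as samples. The values of 1 gene of a pathway list are not reported here.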

Additional observations from a re-analysis of the deposited data

Results flagged for a closer look

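Prim1 stood at 0.47 on Krt5-Cre R172H replicate 3, apart from the other 3 arrays of that group, which lay between 1.30 and 1.43. In groups of 4 such a gap arises by chance in about 1 of 20, and all 36 members were looked at in this 1 group of 4.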

How the results depend on the processing

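Members called higher in BBN against normal numbered 32, and 25 to 35 over all 36 settings run, none lower in any. Beside the 32, 23.7% of all genes tested were called higher, and the shares in the other settings are not given. Leaving out 1 array gave 25 (without normal replicate 3) to 35 (without Krt5-Cre R270H replicate 2). The count was 29 with normexp, 30 with quantile normalization, 30 of 33 tested in the deposited table, 28 with scanner as a block and 26 with slide as a random block. A fixed slide block could not be fitted there. The replicate block gave 32, but equal numbers do not pair these samples: deviations of arrays with the same number correlated from -0.48 to 0.56 (median 0.03). It changed no count in the other comparisons. Those kept 0 members called in every setting run. Pold1, Krt5 against Upk2 mutant groups, went from 0.52 to -0.43 on the scanner of the normal arrays alone, uncalled in both, which compares the R172H groups only, since that scanner read no Cre R270H array. Signal near background limits Ccne2, Cdc45 and Orc1.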
